A study of Mus musculus with 8 samples.

Results

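The effect of trace fear conditioning (TFC) on the right hippocampus was averaged here over wild-type mice and mice lacking Cav3.2. All 4 arrays of trained mice were set against all 4 arrays of naïve mice, so that the comparison takes in 8 of the 8 arrays of the series. WNR and WTR stand for wild-type mice that were naïve or trained, and KNR and KTR for knockout mice in the same states, with 2 arrays each. All were male mice on a C57BL/6 background aged 6 to 8 weeks. The knockout groups lacked Cacna1h, the gene of the pore-forming subunit of the T-type calcium channel Cav3.2, in every cell and in both states, so the averaged effect gives equal weight to training with and without the channel. The trained mice were accustomed to a chamber, given a tone and a foot shock separated by an empty interval, returned to the chamber on the next day for a test of contextual memory, and killed at once. What the naïve mice underwent in the chamber is not given in the sources used here, so handling, shock, memory and test cannot be told apart in the contrast. Each group drew on the right hippocampi of 3 mice, combined into a pool. Whether the 2 arrays of a group carry separate pools or 1 RNA is not stated, so the p-values below speak of the scatter among arrays and perhaps of technical scatter alone.

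Memory of a place and of events separated in time depends on the hippocampus. Neural activity there switches on immediate early genes such as Fos, Egr1 and Arc within minutes, their RNA is short-lived, and slower programmes of synaptic, metabolic and structural genes follow. In bulk tissue, fewer cells of a type and less RNA per cell cannot be told apart.

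RNA was hybridised to one-colour oligonucleotide arrays. Values are quantile-normalised intensities in arbitrary units. Of 29922 probes 16383 carried values, and 16204 that lay above an intensity of 100 on at least 2 of the 8 arrays were tested. Log2 values of duplicate arrays correlated at 0.9879 to 0.9911 across probes, and those of other pairs at 0.9455 to 0.988. The first principal component, with 44.2% of the variance, ran from KNR replicate 1 (38.1) to KTR replicate 2 (-41.2), and the other 6 arrays lay between -21.1 and 16.3. These 2 arrays stand apart and belong to opposite states, so the main counts and some of the gene lists are also given without them. Leaving them out moved the median of 23 of 44 gene lists by more than the scatter between duplicate arrays. The tissue label was checked with its markers. Of 19 pan-neuronal markers measured none was called, and their median log2 difference was 0.05. The dentate gyrus, CA1 and CA2/CA3 lists had medians of 0.00, -0.10 and -0.17, which were -0.07, -0.07 and -0.03 without KNR replicate 1 and KTR replicate 2. The Cacna1h probe read 2576 and 2385 on the WNR arrays, 1550 and 1489 on KNR, 2084 and 2340 on WTR and 1036 and 1440 on KTR. It was lower on every knockout array than on every wild-type array, and training did not change it detectably (log2 difference -0.24 ± 0.12 (SE), adjusted p = 0.24). It kept signal in knockout mice, and whether it matches sequence inside the deletion was not examined, so it checks the genotype labels in part only.

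Over all 16204 probes about as many differences pointed up as down (8110 higher and 8094 lower, median 0.00). Quantile normalisation to a shared distribution largely sets that balance. Among the probes that passed the test decreases outnumbered increases. In limma with genotype as a second factor, 425 of 16204 probes (2.62%) passed an adjusted p of 0.05, 110 of them higher (0.679%) and 315 lower (1.94%) in trained mice. The changes were small. Log2 differences of the called probes were between 0.39 and 1.37 in size with a median of 0.63, and 19 exceeded 2-fold, 6 higher and 13 lower. On 372 of the 425 probes all 4 trained arrays lay above or below all 4 naïve arrays, as they did for 2115 of all tested probes (13.1%, with 5.21% above and 7.84% below). The adjusted p-values lay close to the threshold, the smallest being 0.031. With duplicate arrays averaged first, so that 2 trained values met 2 naïve values, limma called 0 probes (1208 at an unadjusted p under 0.05, smallest adjusted p 0.65), and 375 of the 425 kept an unadjusted p under 0.05. Without KNR replicate 1 and KTR replicate 2 limma called 0 as well, 2853 probes had an unadjusted p under 0.05, all 425 kept their sign, and their median size was 0.59. Leaving out a single array gave 450 calls without WNR replicate 1, 174 without WTR replicate 2 and 0 without any of the other 6, and all 425 kept their sign each time. The calls thus rank probes by how well the 8 arrays separate, and none has been tested over mice. The 425 were chosen for separation on these same arrays, so a kept sign or unadjusted p follows largely from that choice.

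Of the 425 probes 337 carried a gene symbol and 88 did not. A gene was described by the probe that changed, and 109 called probes belonged to genes with several probes on the array. The other probes of these genes gave 139 pairs, of which 89 (64%) had the same sign and 6 were also called in the same direction. The other probes are given for genes below that have them.

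Among the genes that were higher after training, B2m, the light chain of class I major histocompatibility molecules, rose in both genotypes. Its intensity was 382 and 467 on the WNR arrays, 809.8 and 626 on KNR, 1074 and 856 on WTR and 1598 and 1247 on KTR. Every trained array exceeded every naïve array, and within each genotype the level was higher after training (2.12-fold over both, log2 difference 1.09 ± 0.14 (SE), adjusted p = 0.031). Dck, the deoxycytidine kinase of nucleoside salvage, read 1232 and 1053 on the WNR arrays, 1135 and 1194 on KNR, 1900 and 1980 on WTR and 2750 and 3301 on KTR. The 4 naïve arrays were close together and the KTR arrays were the highest (2.1-fold, log2 difference 1.07 ± 0.14 (SE), adjusted p = 0.031). Tmsb4x, thymosin beta 4, which binds actin monomers, read 171 and 33.7 on the WNR arrays, 124 and 207 on KNR, 294 and 222 on WTR and 438 and 389 on KTR. It was dim, with 1 naïve array under the floor of 100, and it rose at least 2.24-fold (log2 difference 1.17 ± 0.23 (SE), adjusted p = 0.043).

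Ecrg4, which encodes a secreted peptide precursor abundant in choroid plexus, read 792 and 794 on the WNR arrays, 682 and 590.1 on KNR, 1743 and 1664 on WTR and 1228 and 1009 on KTR. The duplicates agreed within each group and both genotypes rose (1.94-fold, log2 difference 0.96 ± 0.11 (SE), adjusted p = 0.031). Vwa2, a von Willebrand factor A domain protein of the extracellular matrix, was 2487 ± 140.0 against 1418 ± 396 (SD, n = 4 arrays each) in trained and naïve mice (1.8-fold, adjusted p = 0.041). C8b, the beta chain of complement component 8, was 10490 ± 2343 against 5986 ± 599 (1.73-fold, adjusted p = 0.046), with log2 differences of 0.42 in wild-type and 1.16 in knockout mice. These 3 genes encode secreted proteins.

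Signalling and protein turnover genes were also among the 15 largest increases. The ubiquitin ligase Smurf1, which limits BMP signalling, was 474 ± 75.4 against 239 ± 61.9 (2.01-fold, adjusted p = 0.043). Dvl2, a Dishevelled protein of the Wnt pathway, rose 1.87-fold (adjusted p = 0.045). Ola1, an ATPase of the Obg family, read 244 and 271 on the WNR arrays, 265 and 262 on KNR, 321 and 376 on WTR and 653 and 559.7 on KTR. Its 4 naïve arrays spanned 244 to 271, and the increase was larger on the KTR arrays than on WTR, a difference that missed the threshold (adjusted p = 0.057 for the interaction). Hspa1l, a member of the Hsp70 family, rose 1.74-fold (adjusted p = 0.045) and Haao, a dioxygenase of the kynurenine pathway of tryptophan breakdown, 1.78-fold (adjusted p = 0.049). Tmem190 (adjusted p = 0.049) and the odorant receptor Olfr1389 (adjusted p = 0.046) were dim on naïve arrays, at means of 111 and 191, and rose at least 1.83-fold (1 naïve array of Tmem190 lay under the floor of 100) and 1.72-fold. Rabgap1l, a regulator of Rab GTPases (log2 difference 1.05, adjusted p = 0.046), rests on 1 of 3 probes, since the others differed by -0.19 and -0.03. Itpripl1 (0.80, adjusted p = 0.031) rests on 1 of 2 (0.08 on the other).

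**Figure D1:**
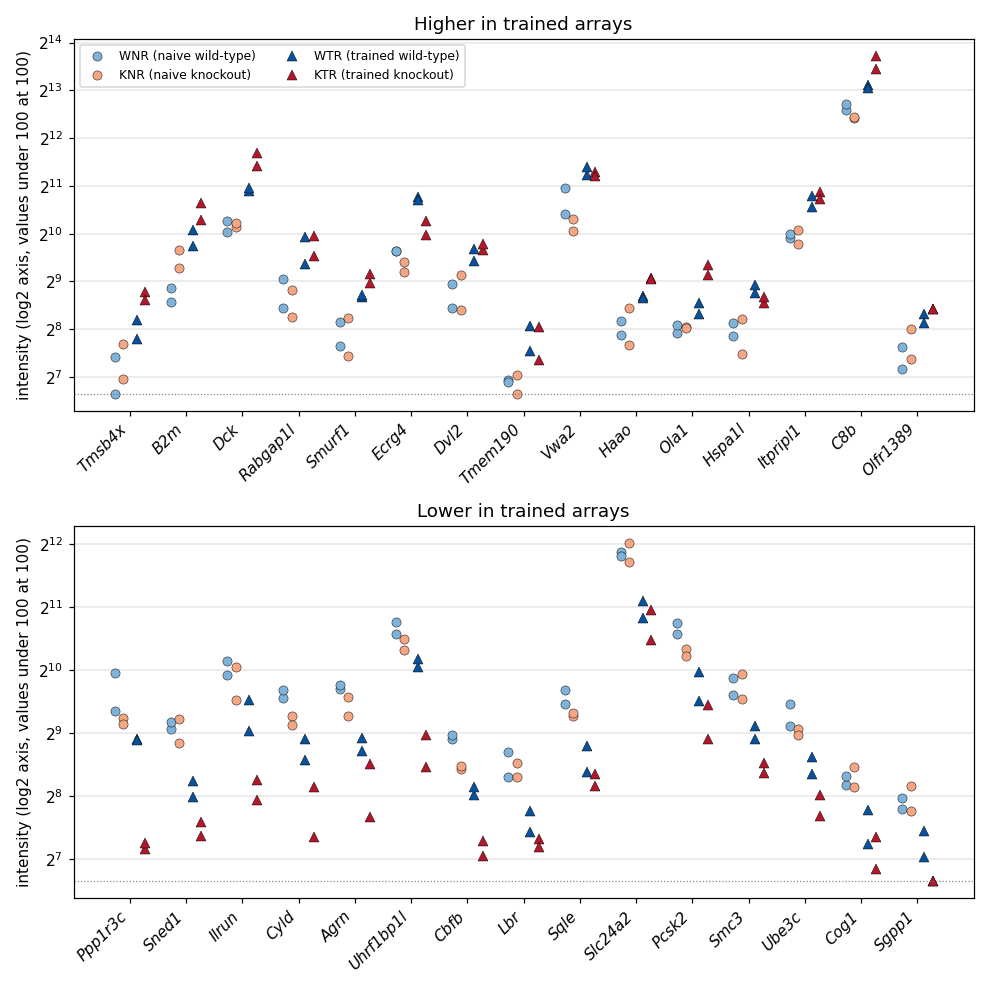
Intensity on each array (log2 axis, values under 100 drawn at 100) of the 15 named genes with the largest increases (top) and decreases (bottom) that passed adjusted p of 0.05 with no overlap between states. Circles are naïve and triangles trained arrays, 2 per group, and the KTR arrays of Ppp1r3c lie at 143 and 153 against 567 or more on every naïve array.

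The largest decrease was in Ppp1r3c, a subunit that brings protein phosphatase 1 to glycogen and favours glycogen synthesis. Its intensity was 653 and 989.6 on the WNR arrays, 605 and 567 on KNR, 477 and 473 on WTR and 143 and 153 on KTR. All trained arrays lay below all naïve arrays, and the KTR arrays lay far below the WTR arrays. It fell 2.59-fold over both genotypes (log2 difference -1.37 ± 0.25 (SE), adjusted p = 0.042), with log2 differences of -0.76 in wild-type and -1.98 in knockout mice. Ppp1r3c was also the only probe among the 425 whose training effect differed between genotypes past the threshold (interaction, log2 -1.23, adjusted p = 0.048).

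Sned1, an extracellular matrix glycoprotein, read 534 and 579 on the WNR arrays, 594 and 459 on KNR, 253 and 303 on WTR and 192 and 165 on KTR. The highest trained array lay at 303 and the lowest naïve array at 459 (2.43-fold, log2 difference -1.28 ± 0.15 (SE), adjusted p = 0.031). Agrn, the proteoglycan agrin, which organises synapses at the neuromuscular junction, read 833 and 872 on the WNR arrays, 759 and 618 on KNR, 483 and 418 on WTR and 365 and 203 on KTR and was lower on all trained arrays (2.18-fold, log2 difference -1.13 ± 0.19 (SE), adjusted p = 0.04). Sqle, squalene epoxidase, an early oxygen-dependent step of sterol synthesis, read 825 and 702 on the WNR arrays, 619 and 639 on KNR, 332 and 444 on WTR and 286 and 326 on KTR. The log2 difference was -0.99 in wild-type and -1.04 in knockout mice, and the decrease was 2.02-fold (log2 difference -1.02 ± 0.12 (SE), adjusted p = 0.031). Lbr, a sterol reductase and lamin B receptor of the inner nuclear membrane, read 314 and 414 on the WNR arrays, 368 and 316 on KNR, 172 and 216 on WTR and 159.9 and 145 on KTR and was lower on all trained arrays (2.05-fold, log2 difference -1.03 ± 0.13 (SE), adjusted p = 0.031).

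The other leading decreases included regulators of signalling and transcription. Cyld, a deubiquitinase that restrains NF-kappaB signalling, was 326 ± 135 against 688 ± 123 (2.25-fold, adjusted p = 0.04). The log2 difference of its second probe was -0.44 (adjusted p = 0.055). Ilrun, an inhibitor of inflammation and lipid regulator, fell 2.33-fold (-1.22, adjusted p = 0.043). Cbfb, the beta subunit shared by the Runx transcription factors, read 480.0 and 499 on the WNR arrays, 344 and 355 on KNR, 258 and 284 on WTR and 133 and 155 on KTR and fell 2.1-fold (log2 difference -1.07 ± 0.12 (SE), adjusted p = 0.031). Ube3c, a HECT ubiquitin ligase that works with the proteasome, fell 1.98-fold (-0.99, adjusted p = 0.031). Cog1, of the Golgi complex for retrograde traffic, fell 1.97-fold (-0.97, adjusted p = 0.043). Sgpp1, a phosphatase that removes sphingosine 1-phosphate, fell by at least 1.96-fold (-0.97, adjusted p = 0.041), since both KTR arrays lay under the floor of 100.

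Further decreases came from 1 of several probes of a gene. Slc24a2, a potassium-dependent sodium and calcium exchanger of neurons, read 3743 and 3587 on the WNR arrays, 4122 and 3354 on KNR, 2184 and 1812 on WTR and 1977 and 1427 on KTR, and every trained array was lower (2.02-fold, log2 difference -1.01 ± 0.14 (SE), adjusted p = 0.031), but its other probe differed by 0.24 (adjusted p = 0.25). Smc3, a cohesin subunit, was 433 ± 103 against 858 ± 114 (-1.01, adjusted p = 0.037) and differed by -0.01 and -0.22 on its other probes. Uhrf1bp1l (-1.12, adjusted p = 0.049) differed by -0.06 on its second probe. Pcsk2, the prohormone convertase 2 that cleaves neuropeptide precursors, had 4 probes. Of these 2 were called lower, at -1.01, adjusted p = 0.035 and at -0.47, adjusted p = 0.04, and the other two differed by -0.20 and 0.14.

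Activity-induced genes were examined because the trained mice were killed straight after the memory test. Gene lists were read with 1 probe per gene, its brightest. Of all 10920 named genes taken so, 284 were called (2.6%), 72 higher (0.659%) and 212 lower (1.94%), with a median log2 difference of 0.00. None of the 29 immediate early genes measured was called higher in limma and 1 was called lower. At an unadjusted p under 0.05 there were 3 higher and 6 lower, and the list's median log2 difference was 0.00. The called gene was Dusp1, a phosphatase that switches off MAP kinases and is itself induced by activity and by glucocorticoids. It read 710.3 and 719 on the WNR arrays, 732 and 670.5 on KNR, 470.0 and 539 on WTR and 382 and 354 on KTR. The naïve arrays spanned 671 to 732 and no trained array exceeded 539 (1.65-fold lower, log2 difference -0.72 ± 0.11 (SE), adjusted p = 0.039). Dusp1 differed by -0.51 in wild-type and -0.93 in knockout mice.

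Fos and Egr1, transcription factors used as markers of recent neuronal activity, lay below every naïve array on every trained array but missed the threshold. Fos read 877 and 850.2 on the WNR arrays, 642 and 664 on KNR, 539 and 628 on WTR and 583 and 506 on KTR (log2 difference -0.42 ± 0.11 (SE), adjusted p = 0.069). Egr1 read 8188 and 7048 on the WNR arrays, 8211 and 7405 on KNR, 6088 and 4563 on WTR and 6207 and 5226 on KTR (log2 difference -0.49 ± 0.12 (SE), adjusted p = 0.067). Egr4 (-0.51, adjusted p = 0.06) and Ptgs2, cyclooxygenase 2 (-0.42, adjusted p = 0.13), had the same order of arrays, and Klf4 was the only listed gene with all trained arrays above all naïve ones (0.70, adjusted p = 0.12, with 0.75 and -0.16 on its other probes). These 3 were picked after their values were seen. Arc, whose product acts at synapses, read 1773 and 1474 on the WNR arrays, 1435 and 1512 on KNR, 1354 and 1531 on WTR and 1471 and 1365 on KTR and overlapped between states (log2 difference -0.11 ± 0.10 (SE), adjusted p = 0.49). Npas4, a factor induced by calcium entry, was lower in the KTR than in the KNR arrays (292 and 290.4 against 459 and 425) and overlapped in wild-type mice (237 and 282 against 280.4 and 290.1), and over both it differed by -0.37 (adjusted p = 0.11). Junb (0.13, adjusted p = 0.48) and the neurotrophin Bdnf (-0.02, adjusted p = 0.92) overlapped too. Nr4a1 was not tested here. No increase of Fos, Egr1 or Arc was measured on these arrays at this time after the test.

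**Figure D2:**
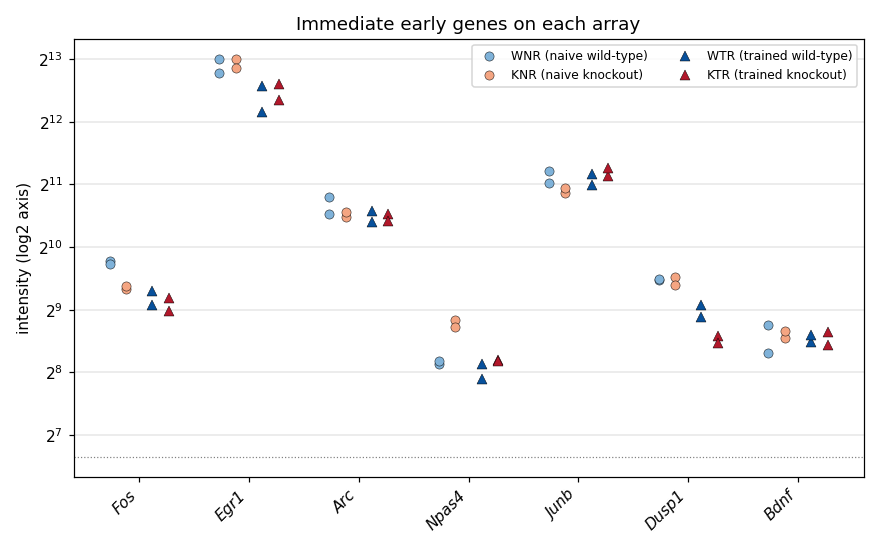
Intensity on each of the 8 arrays (log2 axis) of the immediate early genes Fos, Egr1, Arc, Npas4, Junb, Dusp1 and Bdnf. Circles are naïve and triangles trained arrays, and the triangles of Fos, Egr1 and Dusp1 all lie below the circles, and those of the other 4 genes overlap with them.

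The 250 bases before the start of Dusp1 and of Fos are shown because both genes are induced through the cyclic AMP response element (CRE) bound by CREB. Both were lower on every trained array, Fos without passing the threshold, and a link of these decreases to the element was not tested. Sequences are from RefSeq on GRCm38.p6, 5′ to 3′ on the strand of the gene. Capitals mark the CRE (TGACGTCA) and its core (TGACG) on either strand, the core being part of the full element.
Dusp1: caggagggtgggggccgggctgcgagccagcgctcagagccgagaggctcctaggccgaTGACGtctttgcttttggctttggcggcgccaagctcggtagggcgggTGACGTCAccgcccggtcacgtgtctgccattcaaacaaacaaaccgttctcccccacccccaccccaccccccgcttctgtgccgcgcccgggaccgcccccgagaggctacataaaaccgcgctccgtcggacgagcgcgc
Fos: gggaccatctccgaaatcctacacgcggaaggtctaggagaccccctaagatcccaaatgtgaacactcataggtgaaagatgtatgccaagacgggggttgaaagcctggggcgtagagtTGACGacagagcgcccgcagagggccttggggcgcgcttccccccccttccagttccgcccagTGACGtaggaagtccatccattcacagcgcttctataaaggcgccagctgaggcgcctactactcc
The Dusp1 stretch (chr17:26508473-26508722, minus strand) holds 1 full CRE, from base 143 to base 136 before the start, and a further core from 191 to 187. The Fos stretch (chr12:85473640-85473889, plus strand) holds cores from 129 to 125 and from 66 to 62. Of 32851 promoters of this length 1.55% hold the full element and 17.8% the core. A match describes letters and is not a measured binding site.

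For B2m, the increase named first above, the same window (chr2:122147437-122147686, plus strand) is shown with a spacing found in interferon-stimulated response elements in capitals (GAAA, then 2 bases of any kind, then GAAA), which 2.98% of promoters hold on either strand.
B2m: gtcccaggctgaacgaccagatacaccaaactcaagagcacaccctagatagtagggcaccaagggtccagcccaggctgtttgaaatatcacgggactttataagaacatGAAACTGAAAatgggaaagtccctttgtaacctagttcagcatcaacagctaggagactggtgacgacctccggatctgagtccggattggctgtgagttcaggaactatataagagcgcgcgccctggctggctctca
The match lies from base 139 to base 130 before the start. It is not a measured binding site, and its part in the increase was not tested. Of 20 probes of 18 genes of class I antigen presentation and the interferon response only B2m and Irf7 were called (median 0.08). That family was assembled after the called probes had been seen. Irf7, an interferon regulatory factor, was higher. It read 2069 and 1697 on the WNR arrays, 1470 and 1743 on KNR, 2727 and 2387 on WTR and 2945 and 3147 on KTR, with all trained arrays above all naïve arrays (1.61-fold, log2 difference 0.69 ± 0.14 (SE), adjusted p = 0.045).

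Of 52 genes of the MAP kinase cascade 1 was called higher and 4 lower (median -0.07, and 0.01 without the 2 arrays that stand apart), Dusp1 being among the latter. Mapk14, the kinase p38 alpha, read 1207 and 1206 on the WNR arrays, 1131 and 1172 on KNR, 751 and 967 on WTR and 628 and 580.5 on KTR and was lower on every trained array (1.64-fold, log2 difference -0.72 ± 0.13 (SE), adjusted p = 0.04). Rasgrf1, a calcium-activated exchange factor for Ras that is highly expressed in forebrain neurons, read 25378 and 26000 on the WNR arrays, 19777 and 18450 on KNR, 16874 and 18289 on WTR and 12611 and 13312 on KTR and fell 1.47-fold (log2 difference -0.55 ± 0.08 (SE), adjusted p = 0.034). The phosphatase Dusp4 (-0.55, adjusted p = 0.034) rests on 1 of 2 probes, with -0.24 on the other. Dusp7, the called gene in the other direction, named after its values were seen, was higher (0.53, adjusted p = 0.044). Of 26 genes of neurotrophin and PI3 kinase signalling 20 had a negative difference and 1 was called, the kinase Akt2 (-0.58, adjusted p = 0.04, -0.38 on its second probe).

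Of 50 genes of calcium and cyclic AMP signalling 1 was called higher and 2 lower (median -0.06, and -0.10 without the 2 arrays that stand apart). Camk1, a calmodulin-dependent kinase, read 1255 and 1054 on the WNR arrays, 1303 and 1404 on KNR, 1800 and 1769 on WTR and 1669 and 1816 on KTR and rose 1.41-fold (log2 difference 0.50 ± 0.10 (SE), adjusted p = 0.049). Rapgef4 (Epac2), a cyclic AMP-activated exchange factor for Rap, read 1238 and 1235 on the WNR arrays, 883 and 905 on KNR, 866 and 915 on WTR and 581 and 584 on KTR. It was lower within each genotype, while WTR overlapped with KNR (log2 difference -0.55 ± 0.08 (SE), adjusted p = 0.034). Ryr2, the ryanodine receptor that releases calcium from the endoplasmic reticulum, read 5218 and 5129 on the WNR arrays, 3808 and 3278 on KNR, 2961 and 3243 on WTR and 2526 and 1957 on KTR on the called probe and was lower on all trained arrays (1.63-fold, log2 difference -0.70 ± 0.11 (SE), adjusted p = 0.037), with -0.06 on its other probe.

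Among ion channels and receptors the calls were few. Of 43 potassium channel genes 1 was higher and 3 lower (median -0.10, and -0.03 without KNR replicate 1 and KTR replicate 2). Kcnn2, a small-conductance calcium-activated channel that shapes the afterhyperpolarisation of neurons, read 493 and 549 on the WNR arrays, 429.6 and 407 on KNR, 363 and 359 on WTR and 212 and 172 on KTR and was lower on all trained arrays (1.78-fold, log2 difference -0.83 ± 0.14 (SE), adjusted p = 0.04). Kcnab2, an auxiliary subunit of Kv1 channels, read 6969 and 6849 on the WNR arrays, 6366 and 6013 on KNR, 4984 and 4285 on WTR and 4583 and 3790 on KTR and fell 1.49-fold (log2 difference -0.58 ± 0.10 (SE), adjusted p = 0.04). Kcnk2, a background potassium channel of the TREK type, was lower within each genotype but overlapped across them (-0.53, adjusted p = 0.049). None of 15 voltage-gated calcium channel genes was called (limma, 0 higher and 5 lower at an unadjusted p under 0.05), with a median of -0.19. None of 11 GABA receptor subunits was called (limma, 1 higher and 1 lower at an unadjusted p under 0.05). Of 20 glutamate receptor subunits 1 was called lower, the AMPA receptor subunit Gria3 (-0.49, adjusted p = 0.049), whose other 2 probes differed by 0.05 and -0.41.

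Of 39 genes of synaptic vesicle release 3 were called lower and none higher, while the median of the list was 0.06, and 0.00 without KNR replicate 1 and KTR replicate 2. Unc13b (Munc13-2), which primes vesicles, read 1783 and 1951 on the WNR arrays, 1372 and 1335 on KNR, 1223 and 1122 on WTR and 1042 and 1093 on KTR and fell 1.42-fold (log2 difference -0.51 ± 0.10 (SE), adjusted p = 0.046). Slc17a6, the vesicular glutamate transporter VGLUT2, read 1716 and 1498 on the WNR arrays, 1504 and 1321 on KNR, 1068 and 1130 on WTR and 919 and 1111 on KTR and fell 1.43-fold (log2 difference -0.51 ± 0.10 (SE), adjusted p = 0.046). Pclo, the active zone protein piccolo, was called on 1 of 2 probes (-0.66, adjusted p = 0.049, with -0.01 on the other). On the postsynaptic side 1 of 32 scaffold and adhesion genes was called, Dlg1 (SAP97), which was 593 ± 101 against 880.0 ± 178 in trained and naïve mice (1.48-fold, adjusted p = 0.043). The PACAP receptor Adcyap1r1 was called lower on 1 of 3 probes (-0.73, adjusted p = 0.04, with 0.21 and 0.16 on the others).

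Of 54 genes of ubiquitin conjugation and removal 3 were called lower and none higher, and 38 had a negative difference (median -0.08). Besides Ube3c these were Ube2o, a hybrid conjugating enzyme and ligase that read 4105 and 3721 on the WNR arrays, 3094 and 3085 on KNR, 2127 and 2388 on WTR and 2194 and 1667 on KTR (1.67-fold, log2 difference -0.74 ± 0.11 (SE), adjusted p = 0.034), and Ube2n, which builds a regulatory kind of ubiquitin chain and fell on 1 of 2 probes (-0.78, adjusted p = 0.031, with -0.05 on the other). Of 37 proteasome subunits 1 was called lower, Psmd2 of the regulatory particle (-0.50, adjusted p = 0.043). Of 47 chromatin modifiers 1 was called lower, the cytoplasmic deacetylase Hdac6, which read 681 and 642 on the WNR arrays, 569 and 492 on KNR, 394 and 402 on WTR and 263 and 269.9 on KTR (1.82-fold, log2 difference -0.86 ± 0.10 (SE), adjusted p = 0.031). Of 62 splicing genes Lsm4 (0.52, adjusted p = 0.046) and Srsf1 (0.44, adjusted p = 0.043) were higher and Snrpb2 lower (-0.44, adjusted p = 0.043). The second probe of Srsf1 went the other way (-0.47, adjusted p = 0.1).

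In lipid and sugar metabolism the differences ran mostly down. Of 37 genes of cholesterol and fatty acid synthesis 23 had a negative and 14 a positive difference. In limma 2 were called lower (Sqle and Fads1) and none higher. At an unadjusted p under 0.05 there were 12 lower and 0 higher, against 1649 lower and 1234 higher of all 10920 named genes. The median was -0.11. Fads1, the fatty acid desaturase, read 19842 and 20056 on the WNR arrays, 12974 and 16240 on KNR, 11730 and 13056 on WTR and 10313 and 11071 on KTR and was lower within each genotype, with 1 WTR array above 1 KNR array (log2 difference -0.57 ± 0.11 (SE), adjusted p = 0.043). On 9 of the 37 all trained arrays lay below all naïve arrays, as they did on 889 of all 10920 named genes. Fasn, the fatty acid synthase, was among those that missed the threshold (-0.72, adjusted p = 0.056) and was named after its values were seen. Of 32 genes of glycolysis and glycogen 26 had a negative difference and 1, Ppp1r3c, was called (median -0.14). Pfkp, a phosphofructokinase of glycolysis (-0.76, adjusted p = 0.051), and Slc2a1, the glucose transporter of brain vessels and astrocytes (-0.63, adjusted p = 0.059), missed the threshold and were also named after their values were seen.

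Genes of mitochondria were rarely called. Of 32 complex I genes none was called (limma, 8 higher and 0 lower at an unadjusted p under 0.05), with a median of 0.14 that was 0.45 in wild-type and -0.07 in knockout mice, and 0.26 without KNR replicate 1 and KTR replicate 2. Of 66 mitochondrial ribosomal genes none was called either (limma, 11 higher and 3 lower at an unadjusted p under 0.05), with 0.12 over both and 0.35 in wild-type and -0.11 in knockout mice, and 0.21 without the same arrays. On both lists the WNR arrays had the lowest median levels of the 8. Of 29 genes of complexes II to V only Sdhc, a succinate dehydrogenase subunit, was called (0.56, adjusted p = 0.043), on 1 of 2 probes (0.10 on the other).

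Among cell type markers the choroid plexus and ependyma list had the highest median apart from that of the 7 blood markers measured. Of its 28 measured genes 3 were called higher and none lower, 25 had a positive difference and the median was 0.22. It was 0.22 in wild-type and 0.32 in knockout mice, 0.18 without KNR replicate 1 and KTR replicate 2, and 0.14 with the floor at 200. Of the 28 genes 9 lay under a mean intensity of 200. The called genes were Ecrg4, Folr1, the folate receptor that carries folate across choroid plexus, and Kcne2, a potassium channel subunit of its epithelium, which also stands in the potassium channel list. Folr1 read 74.2 and 88.6 on the WNR arrays, 106 and 79.1 on KNR, 203 and 229 on WTR and 161 and 139 on KTR, so 3 of 4 naïve arrays lay under the floor of 100 and it was at least 1.77-fold higher (log2 difference 0.83 ± 0.13 (SE), adjusted p = 0.04). Kcne2 read 132 and 109 on the WNR arrays, 131 and 139 on KNR, 188 and 209 on WTR and 199 and 226 on KTR (1.61-fold, log2 difference 0.69 ± 0.10 (SE), adjusted p = 0.034). Ttr, transthyretin, the most abundant product of choroid plexus, read 16383 and 15543 on the WNR arrays, 19518 and 20040 on KNR, 26361 and 33147 on WTR and 20596 and 22954 on KTR. All its trained arrays lay above all naïve arrays, with a difference that missed the threshold (log2 difference 0.51 ± 0.16 (SE), adjusted p = 0.11), and it was named after its values were seen. Summed intensity of the 28 genes was 34175 to 37919 on naïve and 40789 to 55161 on trained arrays, with Ttr the largest single part, and none of the 28 was at 0. Choroid plexus lies against the hippocampus, and the part of carried-over tissue in these values was not tested.

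The other cell type lists had few calls. None of the 7 blood markers was called (limma, 2 higher and 1 lower at an unadjusted p under 0.05). Their median was 0.42, 0.03 in wild-type and 0.81 in knockout mice, and 0.16 without KNR replicate 1 and KTR replicate 2. The microglial receptors Cx3cr1 and Mrc1, the latter of perivascular macrophages, were lower among 24 microglia and macrophage markers. Cx3cr1 read 779 and 901 on the WNR arrays, 727 and 707 on KNR, 504 and 581 on WTR and 549 and 519 on KTR (1.44-fold, log2 difference -0.53 ± 0.10 (SE), adjusted p = 0.043) and Mrc1 210.4 and 225 on the WNR arrays, 198 and 202 on KNR, 147 and 163 on WTR and 119 and 120.2 on KTR (1.53-fold, log2 difference -0.61 ± 0.09 (SE), adjusted p = 0.035). The median of that list was 0.00. The endothelial phosphatase Ptprb was lower (-0.79, adjusted p = 0.043) among 21 vascular markers, with log2 differences of -1.02 in wild-type and -0.55 in knockout mice. Gad2, which makes GABA, was lower (-0.42, adjusted p = 0.049) among 17 interneuron markers whose median was 0.18, and 0.08 without KNR replicate 1 and KTR replicate 2. In the dentate gyrus list Prox1, the granule cell transcription factor, was lower with overlap between the states (-0.87, adjusted p = 0.035) and Cpne7 higher (0.47, adjusted p = 0.041). None of 24 astrocyte and none of 23 oligodendrocyte markers was called (limma, 2 higher and 2 lower, and 2 higher and 1 lower, at an unadjusted p under 0.05). Dynlt1, a dynein light chain, was higher (719.5 and 565 on the WNR arrays, 1215 and 1187 on KNR, 1212 and 1380 on WTR and 2594 and 2734 on KTR, log2 difference 1.08 ± 0.11 (SE), adjusted p = 0.031). Its WTR and KNR arrays overlapped, and the mouse has near-identical copies of it which the probe may read too.

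Odorant receptor genes, which serve smell in the olfactory epithelium, leaned upwards as a body. Of 144 measured 135 had a positive difference, 3 were called higher and none lower, and the median was 0.30, 0.09 in wild-type and 0.52 in knockout mice. Olfr632 read 156 and 197 on the WNR arrays, 177 and 222 on KNR, 275 and 259.7 on WTR and 334 and 351 on KTR (log2 difference 0.70 ± 0.12 (SE), adjusted p = 0.04). Olfr720 read 163 and 213 on the WNR arrays, 147 and 219.8 on KNR, 276 and 299.9 on WTR and 319.9 and 334 on KTR (log2 difference 0.74 ± 0.15 (SE), adjusted p = 0.046). With Olfr1389 these are the called receptors, and all 3 lay at means between 186 and 191 on naïve arrays. The list was dim, with 75 of 144 genes under a mean intensity of 200, and with the floor at 200 its median was 0.06. Its median level was lowest on KNR replicate 1 (-0.46) and highest on KTR replicate 2 (0.38), the arrays at the ends of the first principal component, and without them the median difference was 0.12. The part of dim signal in this lean was not tested.

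**Figure D3:**
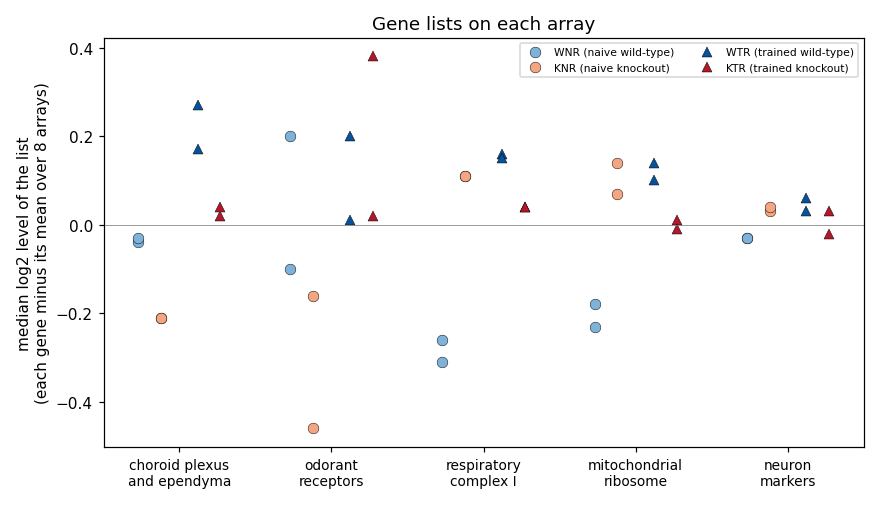
Median log2 level of 5 gene lists on each array, each gene taken relative to its mean over the 8 arrays. Circles are naïve and triangles trained arrays, 2 per group, and choroid plexus and ependyma markers are higher on all trained arrays, odorant receptors range from -0.46 on KNR replicate 1 to 0.38 on KTR replicate 2, and complex I and mitochondrial ribosome are lowest on the WNR arrays.

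**Figure D4:**
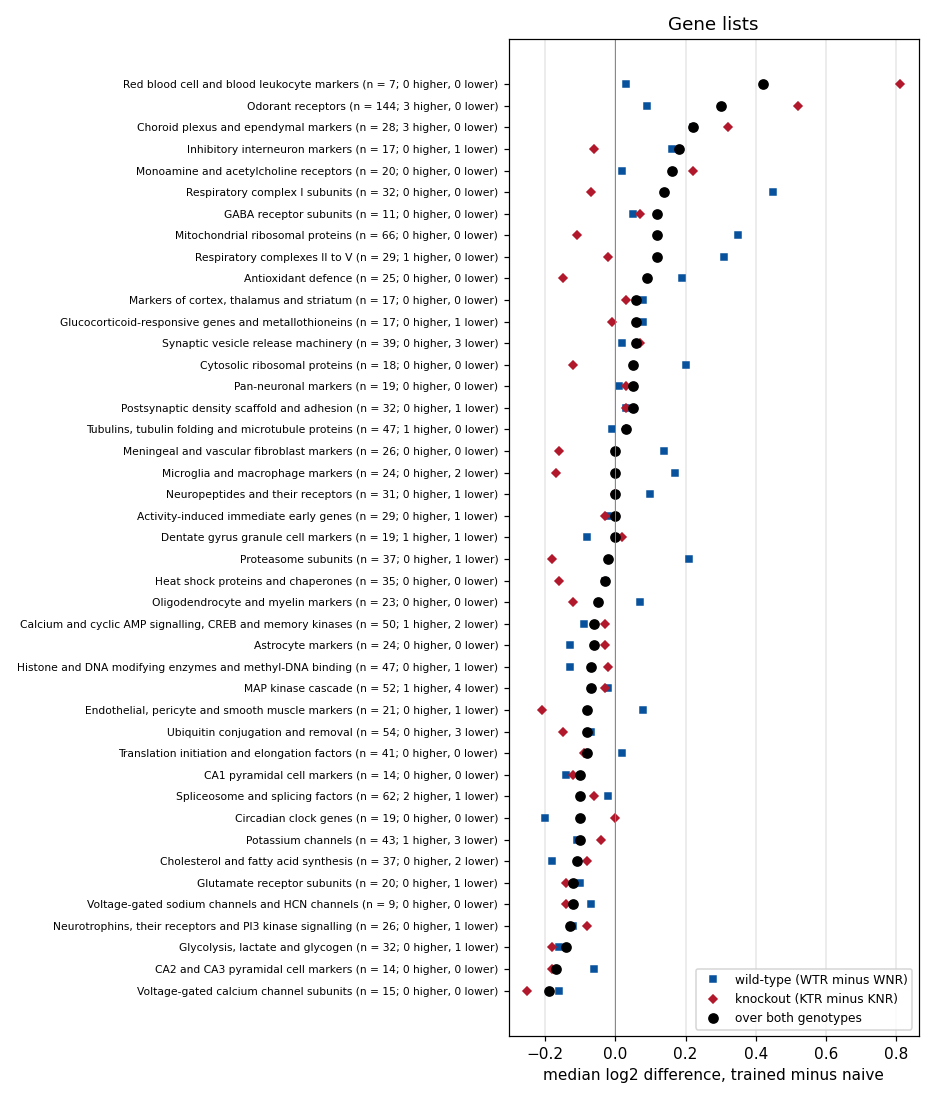
Median log2 difference between trained and naïve arrays of each gene list, the study's own list left out, over both genotypes (black circles), in wild-type mice (blue squares) and in knockout mice (red diamonds), with the number of genes tested and called beside each name. Most medians over both genotypes lie within 0.2 of 0, and the blood, odorant receptor and choroid plexus lists lie highest.

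The averaged effect was then read within each genotype in a fit with a mean per group. The differences of its 2 contrasts come from separate arrays. Their tests share a single estimate of spread per probe, taken from the arrays of both genotypes together. Whether a probe passes in either genotype thus depends on the arrays of both, and passing in both is not the outcome of independent tests. In wild-type mice 1012 probes passed (6.25%, 527 higher and 485 lower), in knockout mice 2575 (15.9%, 1069 higher and 1506 lower), and the interaction of training and genotype passed for 839 (5.18%). Leaving out single arrays left 0 to 104 calls in wild-type mice, 1 to 1632 in knockout mice and 1 to 96 for the interaction. Without KNR replicate 1 the knockout contrast called 1 probe and without KTR replicate 2 it called 28. With the 4 arrays of a genotype fitted alone, limma called 0 in wild-type mice (3935 at an unadjusted p under 0.05) and 0 in knockout mice (5393). Of the 425 probes 134 passed in both genotypes, 46 in wild-type only, 213 in knockout only and 32 in neither, and the size was larger in knockout mice on 257. All 425 had the same sign in both genotypes. Since a probe with opposite effects has a small mean and a large residual, this follows largely from the model. Over all 16204 probes 55.5% had the same sign in both genotypes, and both effects correlated at r = 0.16 across probes, which are not independent.

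**Figure D5:**
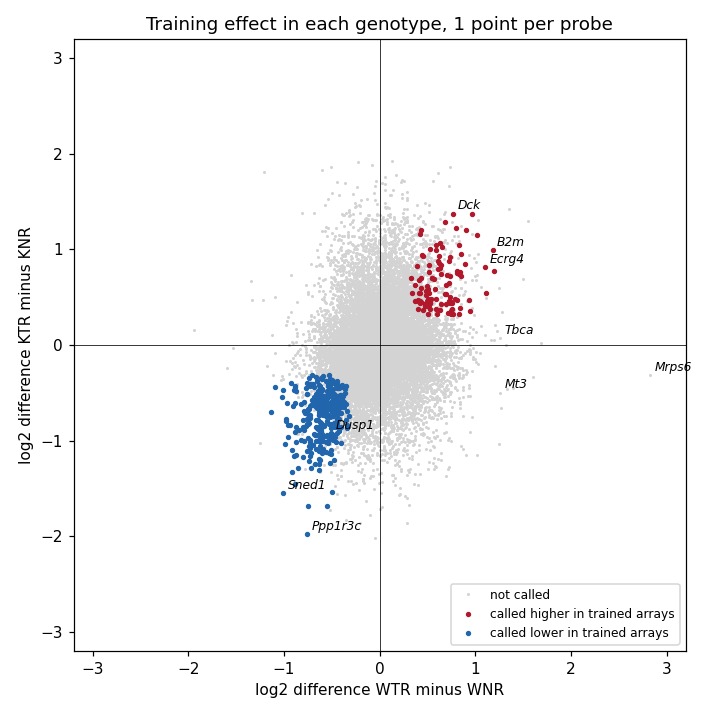
Log2 training difference in wild-type mice (horizontal, WTR minus WNR) against that in knockout mice (vertical, KTR minus KNR), 1 point per probe, with 1 of 16204 probes outside the axes. The 110 probes called higher over both genotypes (red) fill the upper right and the 315 called lower (blue) the lower left, while Mt3, Tbca and Mrps6 lie to the right, near or under the horizontal line at 0.

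Ddx19b, Mrps6, 2310061I04Rik, Mt3, Tbca and Lst1 stand on the study's own list for training in wild-type mice. That list was chosen on these samples and its direction is not independent evidence. None of the 6 was called over both genotypes (limma, 3 higher at an unadjusted p under 0.05). Mt3, metallothionein 3, a zinc-binding protein of brain, read 2706 and 2588 on the WNR arrays, 5703 and 5834 on KNR, 6403 and 6304 on WTR and 3964 and 4224 on KTR. It was higher in WTR than in WNR and lower in KTR than in KNR (1.26 in wild-type and -0.50 in knockout mice), and its average was 0.38 ± 0.31 (SE, adjusted p = 0.46). Tbca, a tubulin folding cofactor, read 4093 and 4499 on the WNR arrays, 8945 and 9253 on KNR, 9894 and 10729 on WTR and 10352 and 8762 on KTR, with 2 WNR arrays below the other 6 (log2 difference 0.66 ± 0.23 (SE), adjusted p = 0.12). Lst1 also had both WNR arrays below the other 6 (0.66, adjusted p = 0.15), as did 2310061I04Rik (0.47, adjusted p = 0.4). Ddx19b was bright on the WTR arrays only (351 and 298, log2 difference 0.86, adjusted p = 0.13). Its naïve arrays and 1 KTR array lay under the floor of 100, which limits that value. For Mrps6 WNR replicate 1 read 4.2 and the other 7 arrays read 1908 to 3119.5 (log2 difference 1.26 ± 0.92 (SE), adjusted p = 0.4). WNR replicate 1 entered the fit at the floor of 100, which limits that value. The difference was 2.83 in wild-type and -0.32 in knockout mice. Leaving out single arrays gave 0.09 to 1.79 over both genotypes, so 1.26 is not a lower bound on an increase.

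Among the called probes the largest unequal effects with the greater size in knockout mice were, on the way down, Ppp1r3c, Uhrf1bp1l, Ilrun, Ulk2 and Scaf11, and, on the way up, Ola1, C8b, Dck and Irf7. Ulk2, a kinase that starts autophagy, had 1 trained array under the floor of 100 and differed by -0.48 in wild-type and -1.20 in knockout mice (interaction adjusted p = 0.056) on 1 of 2 probes, with 0.32 (adjusted p = 0.15) on the other. Scaf11, a splicing factor, differed by -0.52 in wild-type and -1.23 in knockout mice (interaction adjusted p = 0.088) on 1 of 2 probes, with -0.07 on the other. Arhgap32, also among the largest interactions, had the greater size in wild-type mice (-0.93, and -0.40 in knockout mice, interaction adjusted p = 0.1). Apart from Ppp1r3c none of these interactions passed the threshold.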

How the data were processed

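RNA of right hippocampi was labelled with Cy5 and hybridised to one-colour Mouse Whole Genome OneArray slides. Intensities were deposited by the authors as 1 table, which per the methods was floored at 100 and quantile normalised with technical replicates averaged, but it holds values under 100 (5.76% to 5.9% of an array). Median intensities were 484.7 to 485.4. Background correction and spot filters are not given in the sources used here. Of 29922 probes 13539 were empty. The platform annotation gave 1 symbol for 13072 probes, none for 3311 and several for 0, and 2101 symbols were updated through RefSeq.

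Values under 100 were set to 100 and log2 values were fitted with limma 3.58.1 in R 4.3.3 (state and genotype, no interaction, eBayes, Benjamini-Hochberg, two-sided). The methods used SAM within a genotype, which was not run here. A mean per group gave the contrasts within genotypes and the interaction. Scripts were tested on simulated data. The number of arrays limits the precision.

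Called genes were named where the states did not overlap and the brighter state exceeded 200 (the 15 largest each way), together with Cacna1h, the study's list, 8 immediate early genes, up to 4 called members of a list and the 5 largest interactions each way. A fold is between mean log2 values after flooring. The members and lists were chosen with earlier results of these data known, and nothing here is independent of them. Promoters and updated names are from RefSeq (GRCm38.p6). Python 3.11.15, pandas 2.3.3 and matplotlib 3.10.9 made the tables and figures.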

Additional observations from a re-analysis of the deposited data

Results flagged for a closer look

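The training effect differed between genotypes, by limma's interaction term, for 6 of the named genes. All were named for effects on these same arrays, Ppp1r3c partly for its interaction, so the differences are not independent evidence. Arrays of Ddx19b under the floor of 100 limit its value. For Ppp1r3c the knockout effect minus the wild-type effect was -1.23 on the log2 scale (adjusted p = 0.048). For the others, all from the study's list, it was -1.67 for Ddx19b (adjusted p = 0.027), -1.84 for 2310061I04Rik (adjusted p = 0.032), -1.76 for Mt3 (adjusted p = 0.017), -1.20 for Tbca (adjusted p = 0.032) and -1.32 for Lst1 (adjusted p = 0.032). Leaving out single arrays left 1 to 96 interactions over all probes.

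Of 168 groups of 4 arrays, 2 held an array far from the others by Dixon's criterion. Its rate of about 1 in 20 by chance is for 4 independent values. That rate need not hold here, where each group joins 2 genotypes with 2 arrays each and values can tie at the floor. Mrps6 read 4.2 on WNR replicate 1, at a distance of 4.25 on the floored log2 scale from the nearest other naïve array. Folr1 read 106.3 on KNR replicate 1, while the other 3 naïve arrays lay under the floor, a distance of 0.09.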

How the results depend on the processing

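Of 425 calls over both genotypes, limma gave 358 with a floor of 50, 321 (119 higher) with a floor of 200, 363 with log2(value + 16), 423 without a filter, 421 with probes above 100 on all arrays, 427 with median-centred arrays and 510 with an intensity trend. It gave 2281 (869 higher and 1412 lower) with a mean per group and 822 (261 and 561) with array quality weights. It gave 0 without a genotype term (3603 at an unadjusted p under 0.05), with duplicates averaged (1208), with the group as a random block (2477, correlation 0.34), without both KNR replicate 1 and KTR replicate 2 (2853), and at an adjusted p of 0.01 with a 2-fold change. Leaving out 1 array gave 0 to 450 calls, with 13.2% of the 174 higher without WTR replicate 2 against 25.9% of the 425. All 425 kept their sign under each of these settings that gave them a value except a floor of 200, where 405 did. Kept signs follow largely from the choice of the 425 on these same arrays. The causes of the shifts in the counts were not tested.

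Deviations of same-numbered arrays correlated at 0.274 between WNR and WTR and at 0.44 between KNR and KTR, but at -0.385 to -0.244 across genotypes. Same-numbered arrays thus deviated together within a genotype and in opposite ways across genotypes. A block shared by all groups does not describe that pattern, and a block within each genotype was not fitted. With the replicate number as a block limma called 0 probes over both genotypes (3630 at an unadjusted p under 0.05), 0 in wild-type mice (3869), 1442 in knockout mice and 1 interaction (4243).

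In wild-type mice 0 to 104 calls remained without single arrays and 0 in a fit of the 4 arrays alone. In knockout mice there were 1 to 1632 and 0, and 777 with a floor of 200. For the interaction there were 1 to 96. Bdnf, at -0.02, turned to 0.01 without KNR replicate 1 and KTR replicate 2, and ranged from -0.12 to 0.06 without single arrays, the positive values being 0.06 (WNR replicate 2 left out), 0.01 (KNR replicate 2) and 0.03 (KTR replicate 2). Of 71 called named genes, 36 missed the threshold with a floor of 200. Signal near the floor limits the dim genes, and the number of pools limits all of them.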

Other observations

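The families below were assembled after the called probes had been seen, over all their probes, and carry no test of their own. Against 2.62% of all probes called, of 27 probes of 20 NF-kappaB signalling genes 1 was higher and 5 lower, with a median log2 difference of -0.25. Ikbkb, the catalytic kinase that releases NF-kappaB from its inhibitor, was lower on both its called probes, at -0.70 (adjusted p = 0.039) and -0.52 (adjusted p = 0.045). Peli2, a ubiquitin ligase of Toll-like receptor signalling, was called higher on 1 probe (0.52), lower on another (-0.73) and not called on the remaining probe (0.15).

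Of 19 probes of 15 dystroglycan and adhesion linker genes 5 were lower and none higher, with a median of -0.21. Besides Agrn these were Dag1, dystroglycan, which binds agrin (-0.81, adjusted p = 0.043, with -0.59 on its other probe), Vcl, vinculin (-0.95, adjusted p = 0.048), Ctnna1, alpha-catenin, which links cadherins to actin (-0.90, adjusted p = 0.031), and Iqgap1, an actin scaffold (-0.67, adjusted p = 0.043, with -0.05 on its other probe). Of 18 probes of 13 myosins 4 were lower. Both called probes of Myo9b (-0.68 and -0.79) and the called probes of Myo1d (-0.88, with -0.05 on its other probe) and Myo6 (-0.61) made up that count.

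Of 12 probes of 7 sodium and calcium exchangers 3 were lower and none higher, namely Slc24a2, Slc24a4 (-0.48, adjusted p = 0.043, with -0.42 on its other probe) and Slc8a1 on 1 of 4 probes (-0.48, adjusted p = 0.048, with 0.07, 0.17 and 0.06 on the others), while the family's median was -0.06 and 6 probes pointed each way. Lmna, lamin A, was lower on 1 of 3 probes (-0.51, adjusted p = 0.045, with 0.09 and -0.01 on the others), as was the cohesin regulator Pds5b on 1 of 2 probes (-0.68, adjusted p = 0.04, with -0.05 on the other). Of 20 probes of 18 genes of class I antigen presentation and the interferon response only B2m and Irf7 were called, and the median was 0.08. Of 30 probes of 20 kinesins 2 were higher and 2 lower, with a median of 0.03. Kif2a (0.61, with -0.20 on its other probe) and Kif22 (0.55) were higher, and Kif1b (-0.49, with -0.05 and -0.08 on its other probes) and Kif13a (-0.45) were lower.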
